A study of Mus musculus with 6 samples.

Results

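This account covers 10 genes of the DNA methylation cycle in mouse splenic naive B cells, taken by name from a deposited table of 41053 gene names: the dioxygenases Tet1, Tet2 and Tet3, the DNA methyltransferases Dnmt1, Dnmt3a and Dnmt3b, the maintenance factor Uhrf1, the glycosylase Tdg, and the isocitrate dehydrogenases Idh1 and Idh2. All 10 were in the table and all 10 passed the filter on low counts, which left 13604 genes tested. RNA was sequenced from naive B cells of spleens of C57BL/6 mice in 2 groups, TET2 knockout and TET2 wild type, with 3 libraries each that carry the numbers 2, 3 and 4. The deleted part of Tet2, whether the deletion was confined to a cell type, the age and sex of the mice, and whether each library came from 1 animal are not given in the sources used here. The p-values below thus rest on how far the libraries of a group differ, and that spread may be technical.

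Methyl groups are placed on cytosine, mostly at CG dinucleotides. DNMT3A and DNMT3B set new methylation, and DNMT1 copies the pattern to the new strand after replication, guided by UHRF1, a ubiquitin ligase that reads hemimethylated DNA. TET proteins oxidize methylcytosine in steps, using iron, oxygen and 2-oxoglutarate. The thymine DNA glycosylase TDG cuts out the later oxidation products, and base excision repair restores cytosine. IDH1 in the cytosol and IDH2 in mitochondria make 2-oxoglutarate from isocitrate. TET2 is among the genes most often mutated in human blood cancers.

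Total counts per library were 35101788 to 45401781. Levels are given as CPM, counts scaled to a normalized library total, and 3 counts corresponded to 0.0679 to 0.0857 CPM. The B-cell marker Ms4a1 (1790 to 2660 CPM) was high in every library, whereas T-cell, NK-cell and neutrophil markers were low. The 11 B-cell markers summed to 22149.6 to 25733 CPM in knockout and 20692 to 22195 CPM in wild type. Summed levels of 9 T-cell markers were 0.859 to 1.45 CPM in knockout and 0.725 to 0.978 CPM in wild type. Of these, Cd3d was at 0.278 to 0.636 CPM in knockout and 0.159 to 0.257 CPM in wild type without overlap, and Cd3e was at most 0.0722 CPM. The sums were 2.02 to 2.70 and 2.12 to 2.17 CPM for 6 NK-cell markers, 0.177 to 0.963 and 0.136 to 0.432 CPM for 8 neutrophil markers (Elane had 0 counts in all libraries), and 29.7 to 42.4 and 32.1 to 40.6 CPM for 9 macrophage markers. Those of 6 plasma-cell markers were 583 to 649 and 552 to 663 CPM, among them Igj at 11.1 to 32.9 CPM in knockout and 4.91 to 13.3 CPM in wild type. At an unadjusted p under 0.05 edgeR had Cd3d, the NK-cell markers Klrb1c and Klrd1, and the plasma-cell markers Igj and Mzb1 higher. The other 4 plasma-cell markers had negative differences. At the same p, 1 B-cell and 1 macrophage marker were higher and 1 macrophage marker was lower. Over all tested genes 7.85% were higher and 5.51% lower at that p. None of the markers passed after adjustment. The part of these markers in the results below was not tested. In each genotype library 4 stood apart: 14.8% of tested genes differed between number 4 and numbers 2 and 3 when genotype was also fitted (edgeR, adjusted p under 0.05). The summed level of 4 Y-linked genes was 101 to 188 CPM in knockout and 0.0226 to 0.227 CPM in wild type. Xist, transcribed from the inactive X of females, was at 802 to 887 CPM in knockout and 1440 to 1540 CPM in wild type, so the knockout libraries held both. Genotype cannot be told apart from the sex composition of the libraries in any value below. None of the 10 genes lies on a sex chromosome.

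The 3 TET genes differ in the CG content next to their start sites, which is shown here because CG is the sequence these enzymes act on. The sequences are the 250 bases before the RefSeq start on the GRCm38.p6 build, on the minus strand for all of them, written 5′ to 3′ with every CG in capitals.
Tet1 (chr10:62887325-62887574): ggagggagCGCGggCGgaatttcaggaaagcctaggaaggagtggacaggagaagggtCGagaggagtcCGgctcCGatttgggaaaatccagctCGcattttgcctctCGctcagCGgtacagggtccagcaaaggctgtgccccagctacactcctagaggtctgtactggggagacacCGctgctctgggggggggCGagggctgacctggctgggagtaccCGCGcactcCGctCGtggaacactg
Tet2 (chr3:133544391-133544640): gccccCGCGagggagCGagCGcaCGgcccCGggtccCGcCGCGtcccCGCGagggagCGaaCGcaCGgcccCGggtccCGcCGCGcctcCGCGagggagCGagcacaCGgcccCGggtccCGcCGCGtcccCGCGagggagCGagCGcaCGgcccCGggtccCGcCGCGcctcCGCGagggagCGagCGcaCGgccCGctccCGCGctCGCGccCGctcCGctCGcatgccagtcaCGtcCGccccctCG
Tet3 (chr6:83441679-83441928): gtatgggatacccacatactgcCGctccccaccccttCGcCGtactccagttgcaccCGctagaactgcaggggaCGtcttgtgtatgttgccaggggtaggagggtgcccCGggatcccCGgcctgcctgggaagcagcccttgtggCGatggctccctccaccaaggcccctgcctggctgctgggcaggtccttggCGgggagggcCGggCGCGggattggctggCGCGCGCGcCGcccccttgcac
The Tet2 window held 51 CG, the Tet1 window 15 and the Tet3 window 17. Among 32851 windows of the same length before RefSeq starts, the median was 6 CG, 0.067% held at least as many as Tet2, 27.3% at least as many as Tet1 and 23.5% at least as many as Tet3. The Tet2 window adjoins the first base of the counted gene, while the counted models of Tet1 and Tet3 reach farther upstream than these starts. All 10 genes matched the RefSeq table. The other windows ranged from 2 CG at 1 of 3 Dnmt1 starts to 40 CG at 1 of 3 Dnmt3a starts. A count of CG is a description of the sequence, and methylation was not measured here.

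Dnmt1 was the most abundant of the 10 per length, and Tet1 the least. To compare genes, CPM was divided by each gene's summed exon length in the table, giving FPKM (CPM per kilobase of exon). Dnmt1 stood at 26.5 ± 2.28 FPKM (mean ± SD, n = 6 libraries of both genotypes). Tet3 followed at 15.5 ± 1.68 FPKM. Idh2 was at 8.96 ± 0.706 FPKM and Tet2 at 7.06 ± 1.33 FPKM, and Idh2 was above Tet2 in 5 of 6 libraries with overlapping ranges. Idh1 (4.25 ± 0.535 FPKM) and Dnmt3a (4.24 ± 0.210 FPKM) could not be ordered, since each was higher in 3 of 6 libraries. Uhrf1 (2.75 ± 0.376 FPKM) and Dnmt3b (2.74 ± 0.259 FPKM) also overlapped, with Uhrf1 higher in 4 of 6. Tdg was at 1.01 ± 0.173 FPKM and Tet1 at 0.202 ± 0.0451 FPKM. Every other step in this order held in all 6 libraries without overlap. Summed exon length counts every annotated exon, and that of Dnmt3a, 16642 bases, is the longest of the 10, so levels per length are low where the cells use shorter transcripts.

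**Figure D1:**
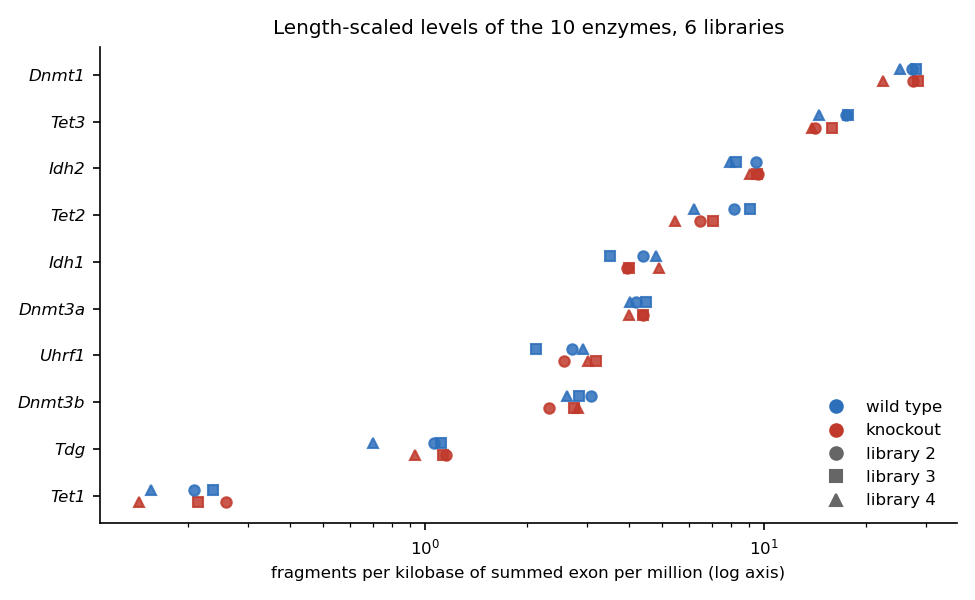
Levels of the 10 genes in FPKM, CPM per kilobase of summed exon (log axis), with 1 symbol per library, blue for wild type and red for knockout. Dnmt1 sits at 22.4 to 28.4 and Tet1 at 0.143 to 0.258, and the pairs Idh2 and Tet2, Idh1 and Dnmt3a, and Uhrf1 and Dnmt3b overlap.

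Of the TET transcripts, Tet3 made up most and Tet1 almost none. On the FPKM scale Tet3 was 67.7, 68.4 and 71.2% of the TET sum in knockout libraries 2, 3 and 4, and 67.6, 65.4 and 69.5% in wild type. Tet2 was 31.1, 30.6 and 28.1% in knockout and 31.6, 33.7 and 29.8% in wild type, so the genotypes overlapped. Tet1 was 0.735 to 1.24% in all libraries. Among the methyltransferases, Dnmt1 was 76.7 to 80.3% of the DNMT sum, Dnmt3a 12.1 to 13.6% and Dnmt3b 6.80 to 9.70%.

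None of the 10 genes passed the threshold between knockout and wild type (edgeR, adjusted p under 0.05), where 0.404% of all tested genes did. None had an unadjusted p under 0.05, where 13.4% of all tested genes did. DESeq2 called 0 of the 10 (2.51% of all genes), with 1, Tet2, at an unadjusted p under 0.05 (7.83% of all genes). The share of 7.83% is over 23018 genes, low counts included, whereas those of edgeR and limma-voom are over 13604. limma-voom called 0 (0.353% of all genes), with 0 at an unadjusted p under 0.05 (14% of all genes). The median log2 difference of the 10 was 0.015, beside −0.005 for all tested genes. It was positive in 6 and negative in 4, and with scaling to library totals positive in 3 with a median of −0.031. In no gene did the genotypes separate completely, as they did in 18.5% of all tested genes.

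Tet2, on chromosome 3 from 133463679 to 133544390 (GRCm38), had 1980 to 2692 counts in the libraries labelled knockout. In the order of the numbers 2, 3 and 4, knockout libraries held 59.4, 64.8 and 50 CPM of Tet2 and wild-type libraries 74.7, 83.3 and 56.8 CPM. Wild-type libraries 2 and 3 were above all knockout libraries, but wild-type library 4 was below knockout libraries 2 and 3. The knockout mean was 81.1% of wild type, a log2 difference of −0.30 (SE 0.14, 95% interval −0.63 to 0.02, edgeR adjusted p = 0.408). That interval runs from 0.647 to 1.02 of the wild-type level. In bulk samples fewer cells with a transcript and less RNA per cell cannot be told apart. Fitting number 4 as a batch gave −0.29, which passed (edgeR adjusted p = 0.042, with 4.4% of all genes called). In libraries 2 and 3 alone it was −0.35 (edgeR adjusted p = 0.00227), where 24% of all genes were called and 10.4% were called lower. Without wild-type library 4 it was −0.44 (edgeR adjusted p = 0.0464, 6.47% of all genes called), whereas without wild-type library 3 it was −0.19 (edgeR adjusted p = 0.781) and without knockout library 4 −0.21 (0.519). Over all alternatives edgeR, DESeq2 or limma-voom gave adjusted p from 0.00227 to 0.82. Number 4 was set apart because its libraries differed in these data, and the labels name no batch. Adjusted p-values with number 4 as a batch or in libraries 2 and 3 alone are thus descriptions, here and below. The counts sum all exons of Tet2 and the deleted part is not given, so this level does not check the genotype labels, and transcript without the deleted exons cannot be told apart from intact transcript.

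Tet3 (chromosome 6, 83362373 to 83459084), the most abundant TET transcript, had the next largest difference in the same direction. It was at 169, 189 and 166 CPM in knockout and at 209, 211 and 173 CPM in wild type. As for Tet2, wild-type library 4 lay among the knockout libraries. The log2 difference was −0.18 (SE 0.09, 95% interval −0.39 to 0.03, edgeR adjusted p = 0.441), and it passed in libraries 2 and 3 alone at −0.23 (edgeR adjusted p = 0.0145) but not with number 4 as a batch (0.114) or without wild-type library 4 (0.0678). The ratio of Tet2 to Tet3 on the FPKM scale was 0.459, 0.448 and 0.395 in knockout and 0.467, 0.515 and 0.428 in wild type, with overlap between the genotypes.

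Tet1 (chromosome 10, 62804570 to 62899118), the TET enzyme best known from embryonic stem cells, had 80 to 167 counts per library. It was at 3.79, 3.13 and 2.10 CPM in knockout and at 3.06, 3.48 and 2.28 CPM in wild type, with the lowest value of each genotype in library 4. Between genotypes the log2 difference was 0.03 (SE 0.25, 95% interval −0.54 to 0.60, edgeR adjusted p = 0.972), and its sign turned with scaling to library totals (−0.02). Its biological coefficient of variation was 21.3%, the highest of the 10, where the median of all tested genes was 11.7%. Counting error is not part of this coefficient, and alone gives a coefficient of variation of 11.2% at the lowest Tet1 count.

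**Figure D2:**
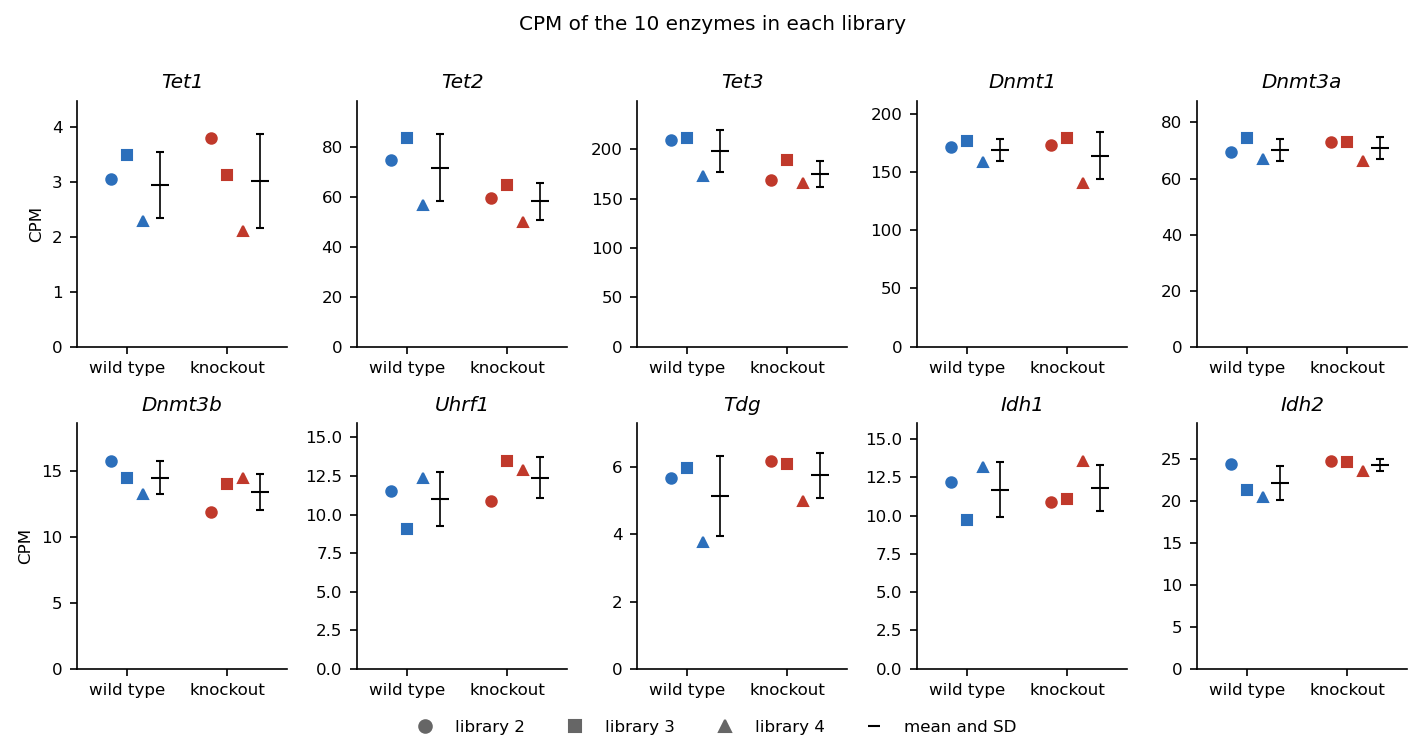
CPM of each of the 10 genes in every library (circle, square and triangle for numbers 2, 3 and 4; blue wild type, red knockout), with the mean and SD of 3 libraries beside them. The genotypes overlap in all 10 panels; Tet2 lies at 50 to 64.8 CPM in knockout and 56.8 to 83.3 CPM in wild type.

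The methyltransferase transcripts overlapped between genotypes and none passed with edgeR. Dnmt1 (chromosome 9, 20907206 to 20959888) was at 173, 179 and 141 CPM in knockout and at 172, 177 and 159 CPM in wild type. Knockout library 4 was the lowest, and the other knockout libraries lay within or just above the wild-type range. Its log2 difference was −0.04 (SE 0.10, 95% interval −0.26 to 0.17, edgeR adjusted p = 0.873), and it turned to 0.05 without knockout library 4. Dnmt3a (chromosome 12, 3806007 to 3914443) was at 73.0, 73.2 and 66.3 CPM in knockout and at 69.5, 74.3 and 66.8 CPM in wild type. Its log2 difference of 0.01 (SE 0.08, edgeR adjusted p = 0.961) had the narrowest interval of the 10, from 0.894 to 1.14 of the wild-type level, and its sign turned with scaling to library totals (−0.03). Exons of Dnmt3a share 133 bases with Dnmt3aos on the opposite strand. Dnmt3b (chromosome 2, 153649450 to 153687730) was at 11.9, 14 and 14.5 CPM in knockout and at 15.8, 14.5 and 13.3 CPM in wild type. Its values overlapped, and its highest and lowest were both in libraries numbered 2 (log2 difference −0.11, SE 0.12, edgeR adjusted p = 0.708).

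Uhrf1 and Tdg, which act at opposite ends of the cycle, had wider intervals. Uhrf1 (chromosome 17, 56303321 to 56323486) was at 10.9, 13.5 and 12.9 CPM in knockout and at 11.5, 9.05 and 12.4 CPM in wild type. Knockout library 3 was the highest and wild-type library 3 the lowest. For Uhrf1 the log2 difference was 0.18 (SE 0.15, 95% interval −0.15 to 0.51, edgeR adjusted p = 0.616). Uhrf1 is transcribed mainly in cycling cells, and 18 proliferation genes had a summed level of 482 to 560.2 CPM in knockout and 431 to 463 CPM in wild type. Their part in the level of Uhrf1 was not tested. On the FPKM scale the ratio of Dnmt1 to Uhrf1 was 7.41 to 10.7 in knockout and 8.68 to 13.2 in wild type. Tdg (chromosome 10, 82629828 to 82650799) was at 6.20, 6.09 and 5 CPM in knockout and at 5.68, 5.98 and 3.77 CPM in wild type. Wild-type library 4, with 132 counts, was the lowest, and without it the log2 difference went from 0.16 (SE 0.20, edgeR adjusted p = 0.752) to −0.01. Exons of Tdg share 367 bases, 6.83% of its length, with Glt8d2 on the opposite strand, whose reads cannot be told apart because strand was not used in counting.

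The isocitrate dehydrogenases also overlapped between genotypes. Idh1 (chromosome 1, 65158616 to 65186500) was at 10.9, 11.1 and 13.6 CPM in knockout and at 12.2, 9.73 and 13.2 CPM in wild type. Its highest value in each genotype was in library 4, the reverse of Tet1, Tet2 and Dnmt1. The log2 difference was 0.02 (SE 0.15, edgeR adjusted p = 0.973), with the sign turned by scaling to library totals (−0.03). Idh2 (chromosome 7, 80094846 to 80115392) was at 24.8, 24.6 and 23.5 CPM in knockout and at 24.4, 21.3 and 20.5 CPM in wild type. Wild-type library 2 lay among the knockout libraries, and the other wild-type libraries lay below them. For Idh2 the log2 difference was 0.14 (SE 0.10, 95% interval −0.08 to 0.35, edgeR adjusted p = 0.561). Idh2 transcripts exceeded those of Idh1 per length in every library, by 1.66-fold to 2.44-fold on the FPKM scale.

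**Figure D3:**
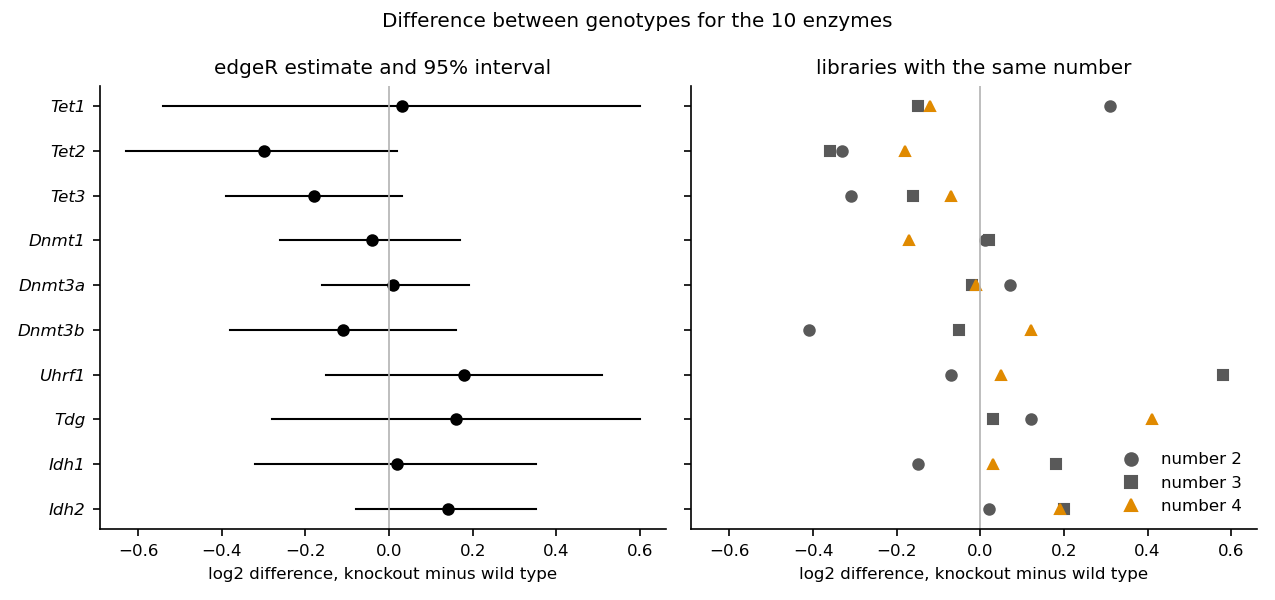
Log2 difference, knockout minus wild type, of the 10 genes: the edgeR estimate with its 95% interval on the left, and the difference of log2 CPM between libraries of the same number on the right. All 10 intervals span 0, and the right panel shows each number alone, which was not taken to pair the samples.

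For several of the 10 genes the log2 difference between number 4 and the other libraries exceeded that between genotypes in size. With genotype in the model, number 4 minus numbers 2 and 3 was −0.62 for Tet1, −0.45 for Tdg, −0.39 for Tet2, −0.22 for Dnmt1 and −0.19 for Tet3 on the log2 scale. It was 0.29 for Idh1 and 0.17 for Uhrf1, −0.12 for Dnmt3a, −0.11 for Idh2 and −0.01 for Dnmt3b. These values are a description, since the libraries numbered 4 were set apart because they differed over all genes. Between the libraries numbered 4 alone, knockout minus wild type was −0.18 for Tet2 and −0.07 for Tet3 (log2 CPM), with 1 library a genotype and no test.

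The genes whose levels followed Tet2 most closely over the 6 libraries, among those with a mean log2 CPM of at least 3, were Setd1a, Ints1, Kmt2b, Mapk8ip3 and Nisch. Pearson's r of log2 CPM with Tet2 was 0.999 for Setd1a, 0.995 for Ints1 and 0.992 for Kmt2b, Mapk8ip3 and Nisch, each with a Spearman rho of 1. SETD1A and KMT2B are histone H3K4 methyltransferases, INTS1 a subunit of the Integrator complex, and MAPK8IP3 a scaffold of JNK signalling. Setd1a was at 50.6, 52.6 and 45.5 CPM in knockout and at 57.8, 61.2 and 49.2 CPM in wild type, which is the order of libraries seen for Tet2. Exons of Setd1a share 51.8% of their bases with Hsd3b7 on the same strand, and those of Mapk8ip3 share 10.7% with Eme2. None of these 5 genes passed between genotypes (edgeR adjusted p = 0.383 to 0.532). These points share the 6 libraries and the shift of the libraries numbered 4, and the genes were picked for their r, so the values are a description.

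The listed genes of 2-oxoglutarate metabolism had mostly positive differences, and none passed with edgeR. Of 28 listed genes of 2-oxoglutarate metabolism, all tested, 24 had a positive log2 difference, where 6641 of 13604 tested genes did. Their median was 0.119, beside −0.005 over all tested genes. In 10 of the 28 every knockout library was above every wild-type library, as in 10.2% of all genes, and in 0 of the 28 was the reverse seen, as in 8.28%. At an unadjusted p under 0.05 edgeR had 10 higher (7.85% of all genes) and 0 lower (5.51% of all genes). DESeq2 called 1 of the 28, D2hgdh (2.51% of all genes), and limma-voom 0 (0.353% of all genes). Number 4 as a batch called 4 higher (2.59% of all genes), and libraries 2 and 3 alone 13 higher (13.6% of all genes). The edgeR count at an unadjusted p under 0.05 was 5 without knockout library 2, without wild-type library 2 or without wild-type library 3. The share of all genes at that p is not given for these fits. After adjustment they called 17, 22 and 21 of all tested genes, against 55 with all libraries. The list's median was 0.072 with 22 positive under scaling to library totals. Between the libraries numbered 4 alone, 17 of 28 were positive with a median of 0.04.

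D2hgdh (chromosome 1, 93824909 to 93852348), the mitochondrial enzyme that turns D-2-hydroxyglutarate, an inhibitor of TET enzymes, back into 2-oxoglutarate, had the smallest p of that list. It was at 21.8, 22.0 and 21.6 CPM in knockout and at 13.3, 15.4 and 17.4 CPM in wild type. The genotypes did not overlap. The knockout mean was 1.42-fold that of wild type, a log2 difference of 0.50 (SE 0.11, 95% interval 0.25 to 0.76, edgeR adjusted p = 0.13). It passed with DESeq2 (adjusted p = 0.00756) and without a filter on low counts (edgeR adjusted p = 0.0245, 1.14% of all genes called). With edgeR it also passed with number 4 as a batch (adjusted p = 0.0184), in libraries 2 and 3 alone (0.000379) and without wild-type library 4 (0.0138). It did not pass with limma-voom (adjusted p = 0.12) or with the number as a block (edgeR adjusted p = 0.0726). Nor did it pass without knockout library 2, 3 or 4 (edgeR adjusted p = 0.509, 0.347 and 0.104) or without wild-type library 2 or 3 (0.525 and 0.419).

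Got2 (chromosome 8, 95864134 to 95888547), the mitochondrial aspartate aminotransferase, was at 53.2, 49.0 and 39.5 CPM in knockout and at 36.4, 37.4 and 33.9 CPM in wild type. Knockout library 4 was close to the wild-type libraries, though above all of them. The log2 difference was 0.40 (SE 0.11, edgeR adjusted p = 0.215). With edgeR it passed without a filter on low counts (adjusted p = 0.0428), with number 4 as a batch (0.0207) and in libraries 2 and 3 alone (0.000245). It also passed without knockout library 4 (edgeR adjusted p = 0.0407, 1.05% of all genes called). It did not pass with DESeq2 (adjusted p = 0.067), limma-voom (adjusted p = 0.222) or any other library left out (edgeR adjusted p = 0.104 to 0.749). The subunits of the NAD-dependent isocitrate dehydrogenase, which makes 2-oxoglutarate in the citric acid cycle, differed by 0.23 (Idh3a), 0.05 (Idh3b) and 0.10 (Idh3g) on the log2 scale. Those of succinate dehydrogenase, which clears the TET inhibitor succinate, differed by 0.18 (Sdha), 0.19 (Sdhb), 0.31 (Sdhc) and 0.28 (Sdhd). None of these 7 passed with edgeR.

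**Figure D4:**
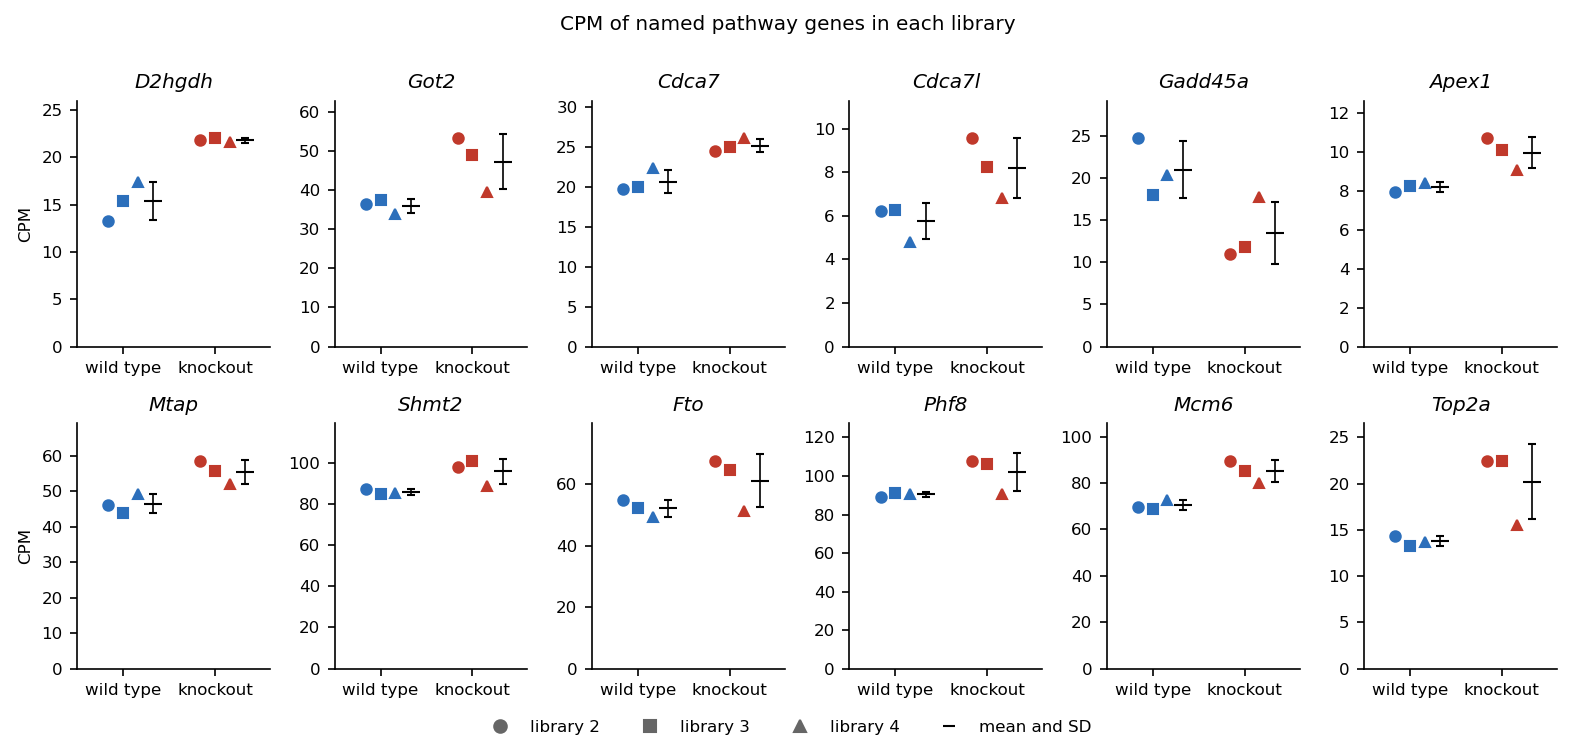
CPM in every library of the genes named from each pathway list (symbols and colours as for the 10 enzymes), with mean and SD of 3 libraries. D2hgdh lies at 21.6 to 22.0 CPM in knockout and 13.3 to 17.4 CPM in wild type, and Gadd45a at 11 to 17.7 and 18 to 24.7 CPM.

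Partners of maintenance methylation had a median near that of all genes. Of 12 genes, 7 were positive, and the median log2 difference was 0.016 (−0.031 with scaling to library totals). edgeR, DESeq2 and limma-voom called 0 (0.404, 2.51 and 0.353% of all genes). Each tool had 2 at an unadjusted p under 0.05, beside 13.4% (edgeR), 7.83% (DESeq2, over 23018 genes) and 14% (limma-voom) of all genes. Those with the smallest p were Cdca7, which with the helicase HELLS remodels nucleosomes for methylation, and its relative Cdca7l. Cdca7 was at 24.5, 25 and 26.1 CPM in knockout and at 19.8, 20.0 and 22.4 CPM in wild type, without overlap (log2 difference 0.28, SE 0.09, edgeR adjusted p = 0.253). It passed with number 4 as a batch (edgeR adjusted p = 0.0469), in libraries 2 and 3 alone (0.00985) and without wild-type library 4 (0.0467). It did not pass with any other library left out (edgeR adjusted p = 0.228 to 0.747). Cdca7l was at 9.56, 8.26 and 6.82 CPM in knockout and at 6.25, 6.28 and 4.80 CPM in wild type (log2 difference 0.51, SE 0.17, edgeR adjusted p = 0.277). It passed with number 4 as a batch (edgeR adjusted p = 0.0391) and in libraries 2 and 3 alone (0.0127). With 1 library left out it did not pass (edgeR adjusted p = 0.119 to 0.814). Of the 12, libraries 2 and 3 alone called 2 higher (13.6% of all genes) and 2 lower (10.4% of all genes). Exons of Cdca7l share 642 bases, 19.7% of its length, with Dnah11 on the opposite strand. Hells differed by −0.02 and Pcna, the replication clamp, by −0.11 on the log2 scale.

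Base excision repair and the GADD45 adaptors, which follow TET and TDG, had a median log2 difference of −0.011 over 17 tested of 18 listed genes, with 7 positive. The sign of the median turned under several alternatives, to 0.033 without wild-type library 2. At an unadjusted p under 0.05 edgeR and limma-voom each had 2 of the 17 (13.4 and 14% of all genes). edgeR and limma-voom called 0 (0.404 and 0.353% of all genes), and DESeq2 called 1 (2.51% of all genes). That gene was Gadd45a, a stress-induced adaptor linked to DNA demethylation, at 11, 11.8 and 17.7 CPM in knockout and at 24.7, 18 and 20.4 CPM in wild type. Knockout library 4 nearly reached the lowest wild-type library. The log2 difference was −0.64 (SE 0.19, edgeR adjusted p = 0.222; DESeq2 adjusted p = 0.0399). It passed in libraries 2 and 3 alone (edgeR adjusted p = 0.00194) and without knockout library 4 (0.0407). It did not pass with number 4 as a batch (edgeR adjusted p = 0.0684) or with any other library left out (0.132 to 0.752). Among the 17, libraries 2 and 3 alone called 2 higher (13.6% of all genes) and 2 lower (10.4% of all genes). Exons of Gadd45a share 337 bases, 19.1% of its length, with E230016M11Rik on the opposite strand. Apex1, the endonuclease that cuts the site left by a glycosylase, differed by 0.28 (edgeR adjusted p = 0.359), and 61.7% of its exon bases are shared with Tmem55b on the opposite strand.

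Enzymes of the methyl donor S-adenosylmethionine and of the folate cycle had a median log2 difference of 0.076 over 14 genes, with 10 positive. The median was 0.031 with scaling to library totals and 0.041 without wild-type library 2, with 8 positive in each. edgeR, DESeq2 and limma-voom called 0 (0.404, 2.51 and 0.353% of all genes). They had 1, 2 and 2 at an unadjusted p under 0.05, beside 13.4, 7.83 and 14% of all genes. The share of 7.83% is over 23018 genes, low counts included. In 6 of the 14 every knockout library was above every wild-type library, as in 10.2% of all genes. Mtap, which salvages the sulfur of methionine, was at 58.6, 55.7 and 51.9 CPM in knockout and at 46.2, 43.7 and 49.1 CPM in wild type (log2 difference 0.26, SE 0.08, edgeR adjusted p = 0.254). Shmt2, the mitochondrial serine hydroxymethyltransferase, was at 88.9 to 101 CPM in knockout and 84.7 to 87.3 CPM in wild type (edgeR adjusted p = 0.377). Both passed in libraries 2 and 3 alone (edgeR adjusted p = 0.00159 and 0.0146). That fit called 4 of the 14 higher (13.6% of all genes) and 0 lower (10.4% of all genes).

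Other dioxygenases that use 2-oxoglutarate, among them histone and RNA demethylases and prolyl hydroxylases, had a median log2 difference of −0.06 over 22 genes, with 7 positive. edgeR, DESeq2 and limma-voom called 0 of them (0.404, 2.51 and 0.353% of all genes). Each had 0 at an unadjusted p under 0.05, beside 13.4% (edgeR), 7.83% (DESeq2, over 23018 genes) and 14% (limma-voom) of all genes. Fto, an RNA demethylase, was at 67.6, 64.4 and 51.3 CPM in knockout and at 54.8, 52.2 and 49.3 CPM in wild type, so library 4 of the knockout lay among the wild-type libraries (log2 difference 0.23, edgeR adjusted p = 0.402). Phf8, an X-linked histone demethylase, differed by 0.17 (edgeR adjusted p = 0.415). Both passed in libraries 2 and 3 alone (edgeR adjusted p = 0.003 and 0.00455). In that fit 2 of the 22 were called higher (13.6% of all genes) and 4 lower (10.4% of all genes).

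The proliferation genes had the largest median of these lists, at 0.35 over 18 genes, with 17 positive. At an unadjusted p under 0.05 edgeR had 10 (13.4% of all genes), all of them higher (7.85% of all genes). That count was 4 without knockout library 2 or 3, 5 without wild-type library 3 and 6 with scaling to library totals. The share of all genes at that p is not given for these fits. After adjustment they called 17, 26, 21 and 58 of all tested genes, against 55 in the main fit. edgeR and limma-voom called 0 of the 18 (0.404 and 0.353% of all genes), and DESeq2 called 1, Top2a (2.51% of all genes). Number 4 as a batch called 4 higher (2.59% of all genes), and libraries 2 and 3 alone 14 higher (13.6% of all genes). Mcm6, a subunit of the replicative helicase, was at 89.7, 85.4 and 80.1 CPM in knockout and at 69.6, 68.8 and 72.8 CPM in wild type (edgeR adjusted p = 0.186). It passed with number 4 as a batch (edgeR adjusted p = 0.0353), in libraries 2 and 3 alone (0.000803) and without wild-type library 4 (0.0464). With any other library left out it did not pass (edgeR adjusted p = 0.0897 to 0.722). Top2a, the topoisomerase of dividing cells, was at 22.5, 22.5 and 15.5 CPM in knockout and at 14.3, 13.3 and 13.7 CPM in wild type. Its log2 difference was 0.55 (edgeR adjusted p = 0.186, DESeq2 adjusted p = 0.0248). With edgeR it passed without knockout library 4 (adjusted p = 0.0164), without a filter on low counts (0.0254) and with number 4 as a batch (0.0275). It also passed in libraries 2 and 3 alone (edgeR adjusted p = 8.26e-05), but not with any other library left out (0.0796 to 0.704). Between the libraries numbered 4 alone, the list's median was 0.10. Their part in the values of Cdca7 and 2-oxoglutarate metabolism was not tested.

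**Figure D5:**
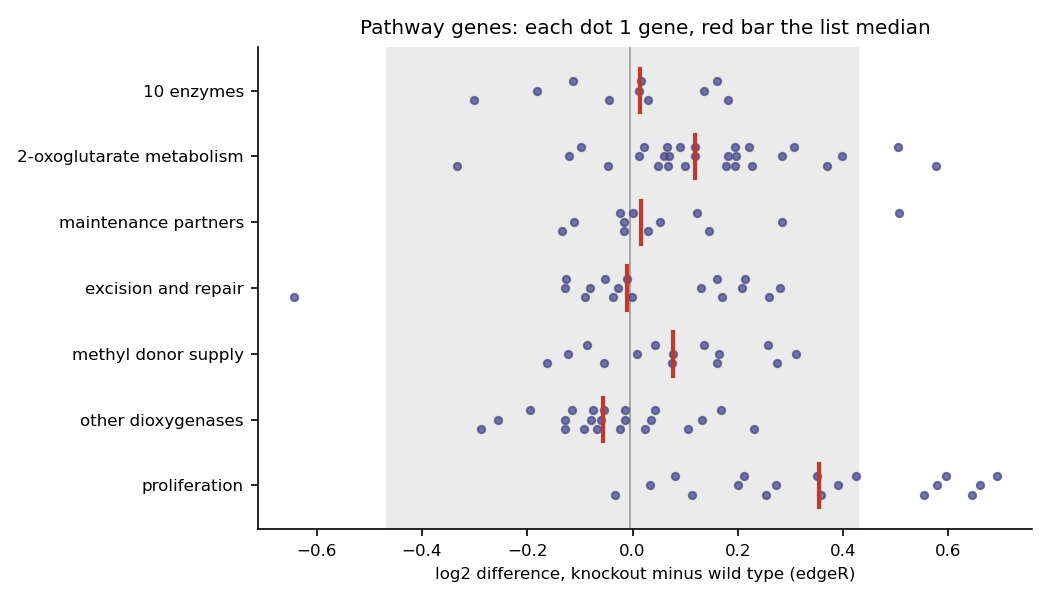
Log2 difference, knockout minus wild type, of each tested gene of the 10 enzymes and 6 pathway lists (1 dot per gene, edgeR), with the list median in red. The grey band runs from −0.47 to 0.43, the 5th to 95th percentile of all tested genes, and the grey line is their median; medians run from −0.06 for other dioxygenases to 0.35 for proliferation.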

How the data were processed

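RNA of splenic naive B cells was sequenced as 6 libraries, 3 per genotype, prepared with a kit that keeps strand (per the labels' protocols). The authors deposited a table of unnormalized counts of fragments for each gene name. Per the file headers, featureCounts 1.5.1 counted paired fragments over exons of GENCODE vM3 (GRCm38) with no strand option. STAR 2.3.0e is named in the submitters' processing notes. Summed exon length came from the same table, in which 6 further count columns belong to no sample used here and were left out. No 2 libraries had identical counts.

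Counts were compared with edgeR 4.0.16 in R 4.3.3 (TMM, filterByExpr with a minimum count of 10, robust quasi-likelihood F test, no covariate), with Benjamini-Hochberg adjustment over all 13604 tested genes and a threshold of 0.05. SE is the log2 difference divided by the root of F. Members and lists (6 pathway lists of 112 genes, 8 marker lists) were chosen with earlier results of these data known. Besides the 10 members, the text names the called genes of each pathway list or, where none was called, those with the smallest p, and the 5 genes most like Tet2. Other list genes and markers were named after their values were seen. The test was checked on simulated counts. Alternatives were other normalizations and filters, DESeq2 1.42.0, limma-voom (limma 3.58.1), a replicate block, number 4 as a batch, libraries 2 and 3 alone, and each library left out. The fits that set number 4 apart were chosen because its libraries differed in these data. Promoter windows are from RefSeq (GRCm38.p6).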

Additional observations from a re-analysis of the deposited data

How the results depend on the processing

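Over all tested genes edgeR called 55. The count was 262 without a filter on low counts, 36 with a mean of at least 1 CPM, 342 with DESeq2, 599 with number 4 as a batch and 3307 in libraries 2 and 3 alone. Leaving out 1 library gave 17 to 900 (17, 26 and 146 without knockout library 2, 3 or 4, and 22, 21 and 900 without wild-type library 2, 3 or 4). Of the 10 enzymes, 0 were called (0.404% of all genes). Number 4 as a batch called 1 (4.4% of all genes), and libraries 2 and 3 alone called 2 (24% of all genes). With 1 library left out 0 to 1 were called, the 1 without wild-type library 4 (6.47% of all genes). Of the 112 listed pathway genes, 0 were called, against 3 without a filter (1.14% of all genes) and 3 with DESeq2 (2.51%). The count was 10 with number 4 as a batch (4.4%) and 45 in libraries 2 and 3 alone (24%). With 1 library left out it was 0 to 7, with 6 without knockout library 4 (1.05%) and 7 without wild-type library 4 (6.47%). Signs turned with scaling to library totals for Tet1 (−0.02), Dnmt3a (−0.03) and Idh1 (−0.03), and in libraries 2 and 3 alone for Dnmt1 (0.01). With 1 library left out, the log2 difference ran from −0.18 to 0.23 for Tet1, −0.11 to 0.05 for Dnmt1, −0.02 to 0.06 for Dnmt3a, −0.01 to 0.27 for Tdg and −0.11 to 0.11 for Idh1. The cause of these changes was not tested. Residuals of same-numbered libraries correlated at 0.086, 0.209 and 0.379 over genes, and knockout library 2 correlated best with wild-type library 3 (0.226), so the numbers were not taken to pair the samples; with the number as a block 85 genes were called, 0 of them among the 10 enzymes or the pathway genes.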
